A study of Mus musculus with 4 samples.

Results

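The genes described here are those of the protein-synthesis machinery, the translation factors and the aminoacyl-tRNA synthetases, as represented on a mouse long-oligonucleotide array. They were chosen by gene symbol alone, as every probe whose platform symbol names an initiation factor (Eif1 to Eif6), an elongation factor (Eef1, Eef2), the release factor Etf1, a mitochondrial factor (Gfm1, Gfm2, Tufm, Tsfm) or an aminoacyl-tRNA synthetase. The rule found 95 probes for 84 genes, out of 22702 probes on the array, which name 15096 genes. The tissues were metanephric mesenchyme (MM) and intermediate mesoderm (IM), each dissected from mouse embryos of both sexes at 10.5 days post coitum. MM is the mesenchyme that forms the nephrons, and IM is the mesoderm from which kidney, gonad and adrenal cortex arise. No strain, genotype or number of pooled embryos is given in the sources used here. Amplified RNA of both tissues was hybridised together on 4 two-colour arrays, with MM in channel 1 on arrays 1 and 2 and in channel 2 on arrays 3 and 4. On arrays 3 and 4 the labels call the tissues Metanephric mesoderm and Intermediate Mesenchyme, read here as MM and IM. Each value is a log2 ratio of MM over IM, positive where MM was higher. That direction is likely from the labels, which do not state the dye of each channel.

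Translation begins when initiation factors bring the methionyl initiator tRNA and the small ribosomal subunit to an mRNA. eIF2 carries that tRNA, eIF2B recharges eIF2 with GTP, eIF3 is the large scaffold on the small subunit, and the eIF4 factors bind the mRNA cap and unwind the leader. Elongation factors then deliver each aminoacyl-tRNA and move the ribosome along, and a release factor ends the chain. Aminoacyl-tRNA synthetases join each amino acid to its tRNA, with a largely separate nuclear-encoded set for mitochondria. In the cytosol of animal cells several synthetases are held in a multisynthetase complex.

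Arrays 1 to 4 held values for 21509, 21599, 15812 and 16242 probes. All 4 arrays measured 14184 probes, 91 of them members, and these were tested. A value at the floor of the table (log2 -6.64, a ratio of 0.01) occurred in 993 of the tested probes and in 0 of the 95 members. Nothing in the labels ties the 4 arrays to separate dissections. The p-values therefore cover array-to-array spread, which may be technical and not that between embryos. The tissue markers did not all follow the labels. Of 8 tested markers of metanephric mesenchyme 5 were higher in MM (62.5%, against 13.6% of all tested probes). Among them were Six2 (log2 3.00 ± 0.63) and Gdnf (1.92 ± 0.13). Eya1 (0.35 ± 0.72) and Hoxd11 (0.10 ± 0.37) did not pass, and Itga8 sat at that floor on both arrays of the reversed orientation. Of 5 tested nephric duct markers 2 were lower (40.0%, against 14.4% of all tested probes) and 0 higher. The 4 markers listed for gonad and adrenal, Nr5a1, Nr0b1, Mc2r and Wt1, were all lower in MM (100%, against 14.4% of all tested probes). Wt1 (-1.57 ± 0.02) is also known from metanephric mesenchyme, so its lower value did not follow the labels.

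More members were higher in MM than lower. In limma, with Benjamini-Hochberg adjustment over all tested probes and a threshold of 0.05, 29 of 91 tested members were higher in MM (31.9%, against 13.6% of all tested probes) and 11 were lower (12.1%, against 14.4%). In either direction 40 members were called, at 28.0% of all tested probes. Of the 91 tested members, 13 were called higher with at least a 2-fold difference, against 611 of all 14184 tested probes (4.31%). Called lower with at least that difference were 0 of the 91, against 133 of the 14184 (0.938%). The median member ratio was 0.11, against -0.08 over all tested probes. These calls treat the 4 arrays as independent, although correlations over all tested probes above the floor were 0.836 and 0.912 within an orientation and 0.113 to 0.274 between orientations. With each orientation averaged to 1 value 0 members passed, and with any 1 array left out 20 to 22 were higher and 2 to 4 lower. Called or not, 65 of the 91 members (71.4%) had the same sign on all 4 arrays, against 49.4% of all tested probes. All 40 called members did so. A call needs a mean that is large beside the spread over the same arrays, so their shared sign is not separate evidence.

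The share of tested probes called higher was 62.5% for cytosolic synthetases, 35.7% for elongation and termination factors, 29.7% for initiation factors and 27.3% for mitochondrial factors and synthetases, against 13.6% of all tested probes. The regulators of translation had 0 higher calls and 4 lower of 11 tested. With a term for channel orientation they had 3 higher and 7 lower, against 23.8% and 38.1% of all tested probes. On arrays 1 and 2 alone they had 2 higher and 4 lower, against 2709 and 2905 of the 14184 tested probes. Medians were 0.60 for cytosolic synthetases (10 higher and 1 lower of 16 tested) and 0.23 for elongation and termination factors (5 higher and 2 lower of 14). They were 0.14 for mitochondrial factors and synthetases (3 higher and 0 lower of 11), 0.04 for initiation factors (11 higher and 4 lower of 37) and -0.24 for regulators (0 higher and 4 lower of 11). The other 2 tested members were pseudogenes. The spread within each role was wider than the gaps between these medians, and the differences between roles were not tested.

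**Figure D1:**
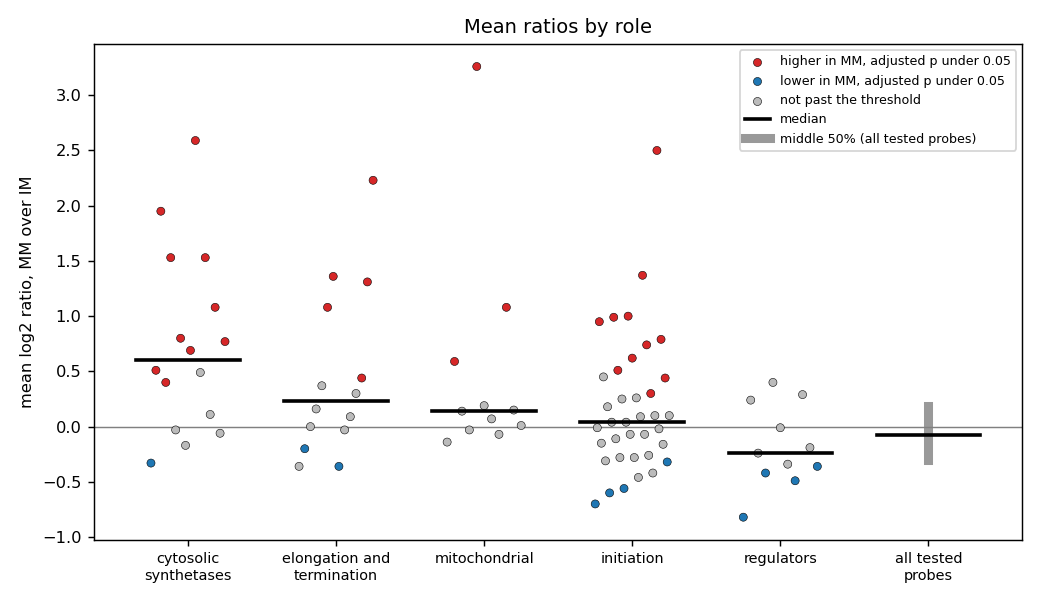
Mean log2 ratio of MM over IM for each tested member (points), by role, with the median of each role as a black line. The last column gives the median and the middle 50% of all 14184 tested probes. Cytosolic synthetases have the highest median of the roles shown (0.60), with Gfm1 (3.26), Tars (2.59) and Eif3b (2.50) as the highest points of their roles.

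Most cytosolic aminoacyl-tRNA synthetases were higher in MM. The called genes were those for threonine (Tars), arginine (Rars), glutamine (Qars), valine (Vars), alanine (Aars), lysine (Kars), tyrosine (Yars), isoleucine (Iars) and histidine (Hars), together with 1 of 2 probes for Eprs, the fused glutamate and proline enzyme. Their share, 62.5% of the tested probes of this role, stood beside 13.6% of all tested probes. Below are the promoters of the 4 synthetases that share a motif and of 2 that lack it, shown because these genes were all higher in MM and the motif is that of a known control element. Capitals mark TGATGCAA or its reverse complement, the core of the C/EBP-ATF response element, and the E-box CACGTG. The C/EBP-ATF response element is known as the site through which Atf4 raises synthetase transcription when amino acids are short, and the E-box as a site of Myc-family factors. Each line runs 5′ to 3′ from 150 bases before the transcription start to 20 bases from it, from RefSeq on the build GRCm38.p6.
Tars (chr15:11399639-11399808, minus strand): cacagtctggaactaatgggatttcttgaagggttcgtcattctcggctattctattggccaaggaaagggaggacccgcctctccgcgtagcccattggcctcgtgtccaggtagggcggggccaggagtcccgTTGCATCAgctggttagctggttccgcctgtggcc
Aars (chr8:111033692-111033861, plus strand): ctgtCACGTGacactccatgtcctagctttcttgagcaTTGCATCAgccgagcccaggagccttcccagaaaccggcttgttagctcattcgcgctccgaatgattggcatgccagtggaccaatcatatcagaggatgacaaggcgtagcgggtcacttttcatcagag
Iars (chr13:49681980-49682149, plus strand): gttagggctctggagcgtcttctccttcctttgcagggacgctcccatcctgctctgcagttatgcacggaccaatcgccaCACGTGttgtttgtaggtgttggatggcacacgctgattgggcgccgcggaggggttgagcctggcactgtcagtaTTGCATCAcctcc
Yars (chr4:129189753-129189922, plus strand): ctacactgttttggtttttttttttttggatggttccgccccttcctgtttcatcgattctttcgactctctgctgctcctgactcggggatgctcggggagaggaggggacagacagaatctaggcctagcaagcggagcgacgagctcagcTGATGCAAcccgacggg
Qars (chr9:108507855-108508024, plus strand): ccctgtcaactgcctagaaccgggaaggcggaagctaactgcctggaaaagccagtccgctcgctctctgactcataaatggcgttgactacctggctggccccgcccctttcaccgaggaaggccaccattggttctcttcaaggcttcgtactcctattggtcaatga
Kars (chr8:112011335-112011504, minus strand): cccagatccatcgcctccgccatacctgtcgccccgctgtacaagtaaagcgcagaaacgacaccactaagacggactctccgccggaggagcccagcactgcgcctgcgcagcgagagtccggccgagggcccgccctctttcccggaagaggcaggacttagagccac

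Of the 16 cytosolic synthetase genes among the members, 9 had a promoter entry (Aars, Eprs, Gars, Iars, Kars, Qars, Sars, Tars and Yars). TGATGCAA, searched on both strands over 250 bases before and 50 bases from the start, occurred in 4 of these 9. It occurred in 0 of the other member genes with an entry, and in 0.895% of all 32851 promoter entries. Counted from the transcription start, the match began at position -112 in Aars, -15 in Tars, 4 in Yars and 8 in Iars. CACGTG, which reads the same on both strands, occurred in Aars, Iars and Tars, in Tars from position 20, so that it is not whole in the line shown. It was in 16 of the 76 promoter entries of members (21.1%), from 14 of the 61 member genes with an entry, and in 7.15% of all promoter entries. The 2 motifs share no base in these promoters. A match is a string of letters and not evidence of binding, and the motifs were chosen with the ratios known.

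Tars had the largest ratio of the tested cytosolic synthetases. Its log2 ratios were 2.29, 2.73, 2.61 and 2.73 on arrays 1 to 4. All 4 arrays put MM well above IM, and the difference between orientations was smaller than the spread within arrays 1 and 2. The mean was 2.59 ± 0.21 (SD, n = 4 arrays), a 6.01-fold difference (limma adjusted p = 0.00179). Rars, a member of the multisynthetase complex, read 1.72, 1.99, 1.89 and 2.20, with a mean of 1.95 ± 0.20 (3.86-fold, limma adjusted p = 0.00239). Qars, also in the complex, read 1.58, 1.62, 1.44 and 1.48 (mean 1.53 ± 0.08, limma adjusted p = 0.00167). Vars, outside it, had almost the same ratios at 1.65, 1.61, 1.43 and 1.40 (mean 1.53 ± 0.13, limma adjusted p = 0.00223). Qars and Vars were lower with MM in channel 2 than in channel 1, by 0.14 and 0.22, and neither came near 0 on any array.

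Aars, the alanine enzyme with both motifs in its promoter, was 2.12-fold higher in MM. It read 1.15, 1.24, 0.94 and 1.01 (mean 1.08 ± 0.14, limma adjusted p = 0.00339). Kars makes lysyl-tRNA for the cytosol and for mitochondria from the same gene. It read 0.96, 1.02, 0.64 and 0.58 (mean 0.80 ± 0.22, limma adjusted p = 0.0125), so the sign held while the size moved with the orientation. Yars (0.80, 0.82, 0.68 and 0.78) and Iars (0.67, 0.73, 0.70 and 0.66) varied little between arrays, with means of 0.77 ± 0.06 and 0.69 ± 0.03 (limma adjusted p = 0.0031 and 0.003). Hars read 0.45, 0.46, 0.54 and 0.60 (mean 0.51 ± 0.07, limma adjusted p = 0.00655).

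The other cytosolic synthetases were near equal in the tissues or unsettled. Sars, the serine enzyme, was positive on each array (0.73, 0.69, 0.16 and 0.36), and its mean of 0.49 ± 0.27 missed the threshold (limma adjusted p = 0.059). Lars, for leucine, was 0.11 ± 0.03, Wars, for tryptophan, was -0.03 ± 0.13 and Nars, for asparagine, was -0.06 ± 0.05, with limma adjusted p from 0.131 to 0.789. Gars, the glycine enzyme that like Kars serves both compartments, was slightly negative on each array and missed the threshold (-0.17 ± 0.07, limma adjusted p = 0.071). The probes of Eprs were called in opposite directions. The first read 0.50, 0.50, 0.28 and 0.30 and the second -0.30, -0.25, -0.29 and -0.46, so no direction can be given for that gene. Cars, the cysteine enzyme, read 4.88, 3.62 and 0.73 on arrays 1, 2 and 4 and had no value on array 3, so it was not tested with the rest.

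Membership of the multisynthetase complex did not sort these genes. The 7 tested probes for complex enzymes had a median of 0.69, with 5 higher (71.4%) and 1 lower (14.3%). The 9 outside it had a median of 0.51, with 5 higher (55.6%) and 0 lower. Of all tested probes 13.6% were higher and 14.4% lower. The ranges overlapped, from -0.33 to 1.95 inside the complex and from -0.17 to 2.59 outside it. A scaffold protein of the complex, Aimp1, was lower in MM (-0.67 ± 0.15, limma adjusted p = 0.00906). Eef1e1, another of its non-enzyme proteins despite the elongation-factor name, lay between -0.04 and 0.04 on the 4 arrays. The subunits of the cytosolic phenylalanine enzyme, Farsa and Farsb, have symbols outside the naming rule. Both were higher in MM, by 1.14 ± 0.16 and 1.66 ± 0.23 (limma adjusted p = 0.00372 and 0.00334).

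The mitochondrial synthetases differed little between the tissues, while 2 mitochondrial elongation proteins were well above IM. Gfm1, the elongation factor G that moves the mitochondrial ribosome, had the largest ratio of all members. It read 3.01, 3.06, 3.50 and 3.47, a mean of 3.26 ± 0.26 or 9.57-fold (limma adjusted p = 0.00167). Tsfm, the factor that recharges the mitochondrial elongation factor Tu, read 1.02, 0.95, 1.17 and 1.18 (mean 1.08 ± 0.11, 2.12-fold, limma adjusted p = 0.00286). For both, all 4 values were far from 0 and arrays 3 and 4 gave the larger ratios. Of 9 tested probes for mitochondrial synthetases, 1 was called, as higher (11.1%, a share near the 13.6% of all tested probes). Hars2, the histidine enzyme, was higher (0.57, 0.45, 0.74 and 0.59, mean 0.59 ± 0.12, limma adjusted p = 0.00856).

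The remaining mitochondrial probes, for Ears2, Fars2, Sars2, Tars2, Vars2, Wars2 and Yars2, had means from -0.14 to 0.19. For threonine and valine the cytosolic and mitochondrial enzymes thus stood apart. Tars2 was 0.07 ± 0.08 and Vars2 was -0.07 ± 0.06, next to 2.59 for Tars and 1.53 for Vars, and no array of Tars2 or Vars2 overlapped any array of its cytosolic counterpart. Histidine was different, with Hars at 0.51 and Hars2 at 0.59 and overlapping arrays. These pairs were set side by side after their values were seen and their differences were not tested. The mitochondrial initiation factor Mtif2, outside the naming rule, was slightly lower in MM (-0.28 ± 0.03, limma adjusted p = 0.0166), and Mtif3 did not pass (0.14 ± 0.11).

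**Figure D2:**
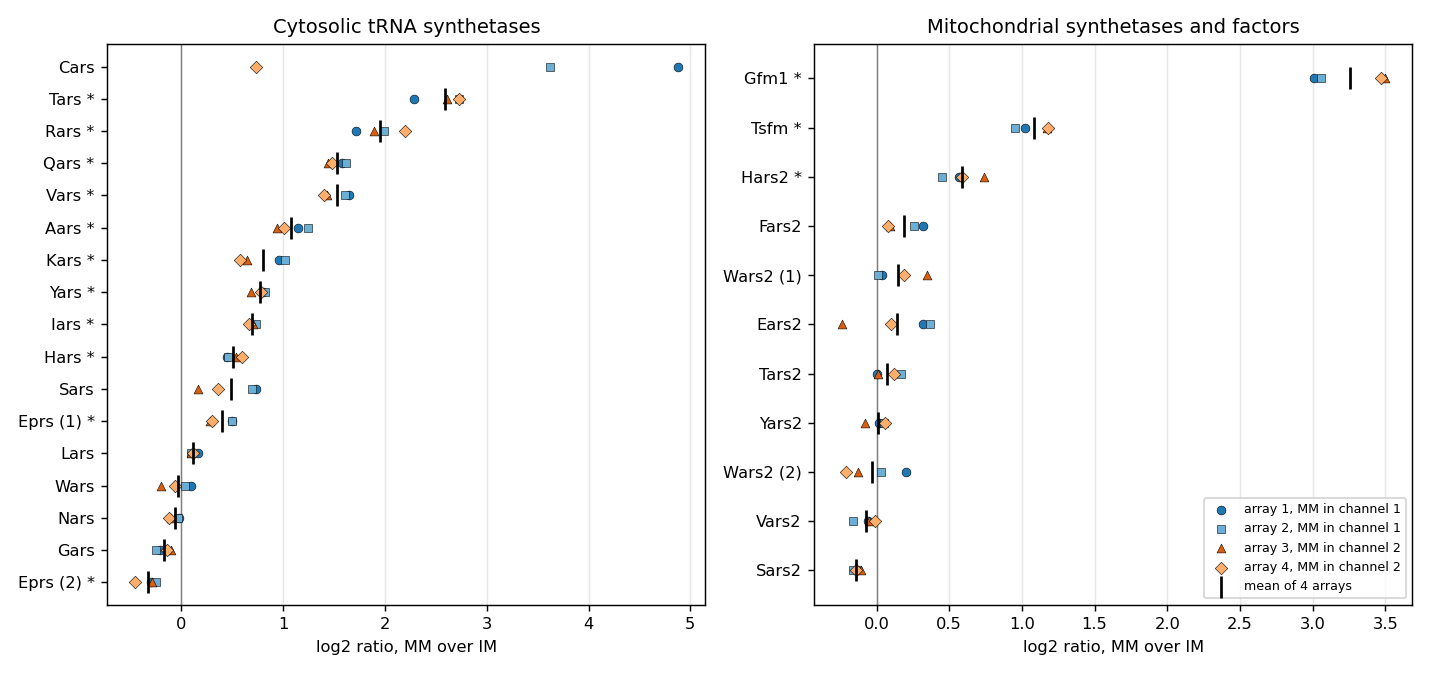
Log2 ratio of MM over IM on each of the 4 arrays for cytosolic synthetases (left) and for mitochondrial synthetases and factors (right). Each row is a probe, numbered where a gene has several, the black tick is its mean, and an asterisk marks a limma adjusted p under 0.05. From Eprs probe 1 at 0.40 up to Tars at 2.59 all arrays lie above 0, and on the right only Hars2, Tsfm and Gfm1 are called.

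Of 37 tested probes for initiation factors 11 were higher in MM (29.7%, against 13.6% of all tested probes) and 4 lower (10.8%, against 14.4%), and the largest ratio belonged to eIF3. Of 12 eIF3 subunits 5 were higher and 0 lower, with a median of 0.28. Eif3b, a core subunit on which the rest of that module is built, read 2.51, 2.46, 2.91 and 2.11, a mean of 2.50 ± 0.33 or 5.64-fold (limma adjusted p = 0.00293). All 4 arrays were far above those of any other eIF3 subunit. Eif3l read 1.00, 1.18, 0.96 and 0.82 (mean 0.99 ± 0.15, limma adjusted p = 0.00438). Eif3c, another core subunit, was higher by 0.74 ± 0.12, Eif3j1, the loosely bound subunit, by 0.62 ± 0.14, and Eif3e by 0.30 ± 0.05 (limma adjusted p from 0.00569 to 0.0163).

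The remaining eIF3 subunits did not pass, and 5 of them split by array orientation. Eif3a, the largest scaffold subunit, read 0.43, 0.80, 0.24 and 0.33 (mean 0.45 ± 0.24, limma adjusted p = 0.056). Eif3d was 0.25 ± 0.19. Eif3f, Eif3h, Eif3i, Eif3k and Eif3m were each positive with MM in channel 1 (0.10 to 0.47) and negative with MM in channel 2 (-0.49 to -0.10). Their means of -0.15 to 0.10 are therefore averages of opposite signs and give no direction.

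Among the cap-binding and helicase factors, Eif4b, Eif4a1 and the first probe of Eif4a2 were higher in MM, Eif4g3 and Eif4e3 were lower, and the other 5 tested probes did not pass. Eif4b, which stimulates the helicase, had nearly identical ratios of 1.39, 1.36, 1.39 and 1.36 (mean 1.37 ± 0.02, 2.59-fold, limma adjusted p = 0.00154). Eif4a1, the main helicase, read 1.32, 1.03, 0.75 and 0.69 (mean 0.95 ± 0.29, limma adjusted p = 0.0141), with arrays 3 and 4 below arrays 1 and 2. For its paralog Eif4a2 the first probe was higher (0.72, 0.76, 0.87 and 0.84, mean 0.79 ± 0.07, limma adjusted p = 0.00309). The second probe was near 0 on arrays 2 to 4 (-0.07 to -0.03) and 0.31 on array 1, and did not pass (limma adjusted p = 0.791). Eif4a3, a helicase of the exon junction complex, read 0.56, 0.76, -0.16 and -0.12 and had no settled sign.

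Eif4g3, a paralog of the cap-complex scaffold, was lower in MM at -0.68, -0.61, -0.74 and -0.78 (mean -0.70 ± 0.07, limma adjusted p = 0.00384). Eif4e3, a minor cap-binding paralog, was lower at -0.52, -0.51, -0.66 and -0.69 (mean -0.60 ± 0.09, limma adjusted p = 0.00632). Both were negative by similar amounts on every array. Eif4e, the main cap-binding protein, was negative on each array but by unequal amounts (-0.08, -0.09, -0.57 and -0.50), and its mean of -0.31 ± 0.26 did not pass (limma adjusted p = 0.151). Eif4e2, a cap-binding repressor, at -0.28 ± 0.19, and Eif4g2, a scaffold that does not bind eIF4E, at 0.09 ± 0.24, did not pass.

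Of the factors around initiator tRNA, the beta subunit of eIF2B stood apart from its partners. Eif2b2 read 0.91, 0.90, 1.07 and 1.11 (mean 1.00 ± 0.11, 2.00-fold, limma adjusted p = 0.00303), while Eif2b1, Eif2b3 and Eif2b4 had means of 0.10, -0.02 and -0.11 and did not pass. No array of those 3 subunits exceeded 0.20. Eif2d, which can bring initiator tRNA to the ribosome without eIF2, was higher by 0.51 ± 0.10 (limma adjusted p = 0.00888). Eif2s2, the beta subunit of eIF2, was negative on each array (-0.34, -0.17, -0.65 and -0.66) and just missed the threshold (mean -0.46 ± 0.24, limma adjusted p = 0.0536).

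The gamma subunit of eIF2 has copies on the X and Y chromosomes. The Y copy, Eif2s3y, was lower in MM (-0.48, -0.41, -0.62 and -0.73, mean -0.56 ± 0.14, limma adjusted p = 0.0121). The probes of the X copy, Eif2s3x, were called in opposite directions, at 0.44 ± 0.06 and -0.32 ± 0.14. Near-identical sequences of these copies could share signal, which was not tested. Xist, expressed in female cells, was also lower in MM (-0.40 ± 0.02), and the other Y-linked probes lacked a value, reached the floor or changed sign with orientation on some arrays, so the sex makeup of the tissues cannot be read from these values. Eif1a, Eif1ax and Eif1b, scanning factors or their close relatives, had means from -0.42 to -0.26 and did not pass (limma adjusted p from 0.103 to 0.159). Eif1ad, a nuclear relative, was at 0.04. Eif5, the GTPase activator of eIF2, was -0.16 ± 0.29, and Eif6, which keeps ribosomal subunits apart, was 0.18 ± 0.10; neither passed.

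**Figure D3:**
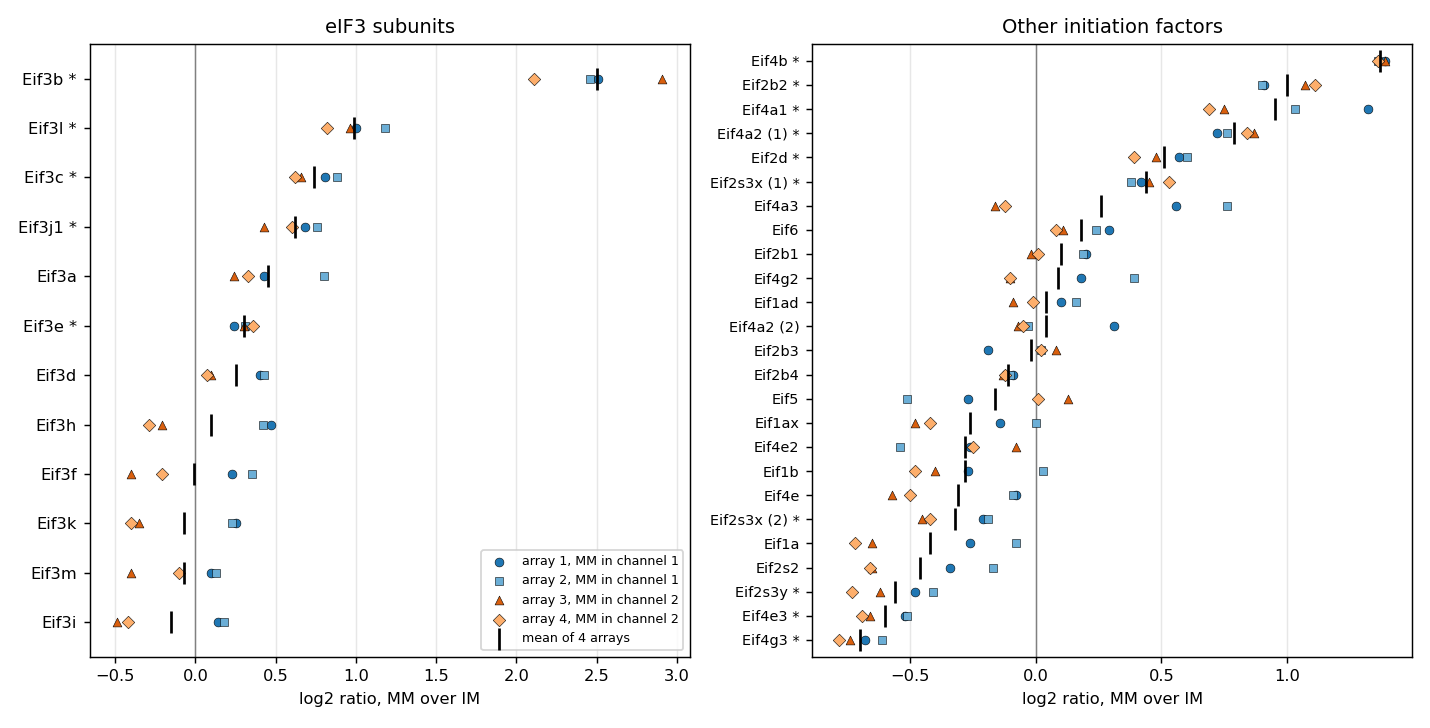
Log2 ratio of MM over IM on each array for eIF3 subunits (left) and the other initiation factors (right), drawn as in the plot of the synthetases. Eif3b lies at 2.11 to 2.91 on all arrays, and 5 eIF3 subunits lie above 0 on arrays 1 and 2 and below 0 on arrays 3 and 4.

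Of 14 tested probes for elongation and termination factors 5 were higher in MM (35.7%, against 13.6% of all tested probes) and 2 lower (14.3%, against 14.4%). The higher ones were 2 of 3 probes for Eef2, the tested probe for Eef1a1, and the probes for Etf1 and Eif5a. Etf1, which recognises stop codons, read 1.37, 1.48, 1.34 and 1.26 (mean 1.36 ± 0.09, 2.57-fold, limma adjusted p = 0.00192). Its partner GTPase Gspt1, outside the naming rule, was higher by only 0.22 ± 0.08 (limma adjusted p = 0.0478). Eif5a, named as an initiation factor but known to act in elongation, was higher by 0.44 ± 0.19 (0.55, 0.64, 0.35 and 0.23, limma adjusted p = 0.0346).

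The probes for eEF2, the translocase, did not give a single answer. The second read 2.41, 2.29, 2.07 and 2.16 (mean 2.23 ± 0.15, 4.70-fold, limma adjusted p = 0.00167) and the third 1.66, 1.53, 1.02 and 1.05 (mean 1.31 ± 0.33, limma adjusted p = 0.00898). The first was slightly below 0 on every array, at -0.16 to -0.22 (mean -0.20 ± 0.03, limma adjusted p = 0.0364). The third probe was lower with MM in channel 2 than in channel 1. Even so, no array of any probe overlapped those of another, so the disagreement in sign lies between probes and not between arrays. A direction for Eef2 therefore rests on 2 of 3 probes.

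eEF1A, which delivers aminoacyl-tRNA to the ribosome, is made from Eef1a1 in most embryonic cells and from Eef1a2 in adult muscle and neurons. The tested Eef1a1 probe read 1.34, 1.17, 0.95 and 0.86 (mean 1.08 ± 0.22, 2.11-fold, limma adjusted p = 0.00664). The other Eef1a1 probe read -2.01 and -1.94 on arrays 1 and 2, opposite in sign, and had no value on arrays 3 and 4. The pseudogene probe Eef1a1-ps1, whose sequence is close to that of Eef1a1, was positive on each array (0.39, 0.15, 1.15 and 1.05) without passing. Eef1a2 was lower by the first probe (-0.25, -0.25, -0.46 and -0.48, mean -0.36 ± 0.13, limma adjusted p = 0.029), and the second changed sign with orientation (-0.52, -0.08, 0.70 and 0.53).

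Markers of muscle and neurons, the cells in which Eef1a2 is best known, are given beside it. Of 12 tested striated muscle probes 5 were lower in MM (41.7%, against 14.4% of all tested probes) and 1, Des, was higher (0.97 ± 0.13). Their median was -1.17, or -0.99 without probes at the floor, and per-array medians ran from -1.45 to -0.54. Actc1 (3.49 and 4.22 on arrays 1 and 2) and a Ttn probe (2.38 and 3.86, then the floor on array 4) lacked values and were not tested. Of 7 tested neuronal probes 5 were lower (71.4%) and 0 higher, with a median of -0.49 and per-array medians from -0.52 to -0.45. Their part in the Eef1a2 ratio was not tested, and in these tissue samples fewer cells of a type and less RNA per cell cannot be told apart. The exchange factor subunits of eEF1A were not called. Eef1b2 was -0.03 and -0.36 by its 2 probes, Eef1d was 0.09 and 0.30, and Eef1g, which had the largest orientation difference of the tested members, read -0.24, -0.40, 1.07 and 1.03.

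Of 11 tested probes for proteins that restrain or modify translation 4 were lower in MM (36.4%, against 14.4% of all tested probes) and 0 higher. With a term for orientation Eef2k, Eif2ak3 and Eif2ak4 were called higher (limma adjusted p = 0.0156, 0.00696 and 0.00816) and 7 probes lower. In that fit 23.8% of all tested probes were higher and 38.1% lower. Eif2ak2, the eIF2 kinase activated by double-stranded RNA, read -0.50, -0.48, -1.20 and -1.09 by its first probe (mean -0.82 ± 0.38, limma adjusted p = 0.0362). Its second probe was positive on the 3 arrays that measured it, at 0.36, 0.73 and 0.13, so the probes of that gene disagree. Without that term the other eIF2 kinases did not pass. Eif2ak4, which senses uncharged tRNA, was positive on each array (0.13, 0.22, 0.35 and 0.45, mean 0.29 ± 0.14, limma adjusted p = 0.057). Eif2ak3, the kinase of the endoplasmic reticulum, was 0.24 ± 0.33, and Eif2ak1, the haem-regulated kinase, was -0.34 ± 0.34.

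The other lower calls were methyltransferases that modify elongation factors. Eef1akmt2 read -0.44, -0.44, -0.54 and -0.53 (mean -0.49 ± 0.06, limma adjusted p = 0.00627), Eef2kmt read -0.39, -0.41, -0.46 and -0.42 (mean -0.42 ± 0.03, limma adjusted p = 0.00686), and Eef1akmt1 read -0.44, -0.44, -0.30 and -0.24 (mean -0.36 ± 0.10, limma adjusted p = 0.0211). The ratios of all 3 were small, repeatable and of the same sign on every array. Eef1aknmt, which also modifies eEF1A, read -0.83 and 0.37 on arrays 1 and 2 alone. Leaving out any 1 array left 0 to 2 of the 4 regulator calls. Of the proteins that sequester the cap-binding protein, Eif4ebp1 was -0.19 ± 0.06 (limma adjusted p = 0.0532) and Eif4ebp2 was -0.01 ± 0.03. Eif4enif1, which carries eIF4E into the nucleus, was -0.24 ± 0.42. Eef2k, the kinase that inhibits eEF2, read 0.95, 0.71, -0.13 and 0.08 and had no settled sign.

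**Figure D4:**
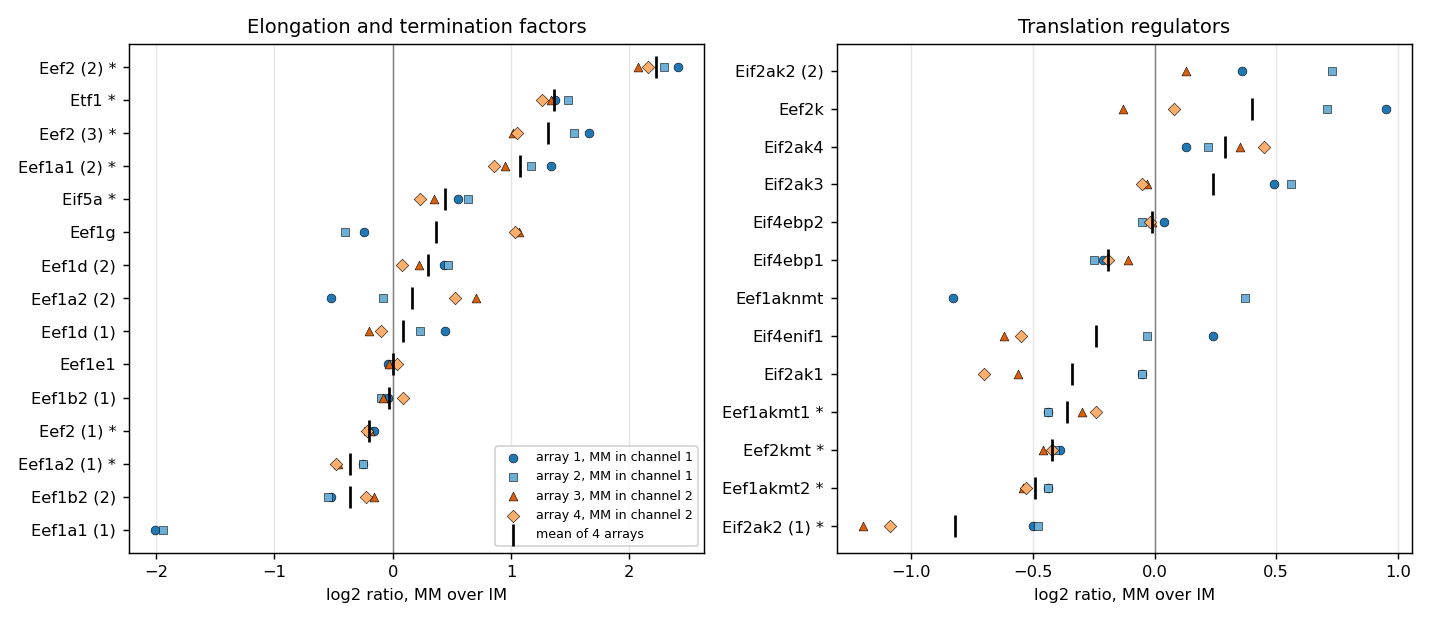
Log2 ratio of MM over IM on each array for elongation and termination factors (left) and translation regulators (right), drawn as in the plot of the synthetases. The 3 Eef2 probes lie at about -0.20, 1.31 and 2.23, and no regulator with an asterisk has a mean above 0.

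Genes that act with the members were described from lists put together by function. Of 31 tested probes for other translation genes, 8 were higher in MM (25.8%, against 13.6% of all tested probes) and 6 lower (19.4%, against 14.4%), with a median of 0.14. The largest higher ratios among those called were Hbs1l, a ribosome-rescue GTPase (1.94 ± 0.93, limma adjusted p = 0.0376), Farsb and Farsa. The largest lower ones were Aimp1, Larp1, which binds mRNAs with a terminal oligopyrimidine tract (-0.62 ± 0.31, limma adjusted p = 0.0426), and Tpt1, itself encoded by such an mRNA (-0.49 ± 0.09, limma adjusted p = 0.00886). Mtor, the kinase that promotes cap-dependent translation, was -0.11 ± 0.11 by its tested probe and did not pass, and its other probe had 3 values of mixed sign.

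Genes that respond to amino acid shortage together with many synthetases were higher in MM for 9 of 22 tested probes (40.9%, against 13.6% of all tested probes) and lower for 0, with a median of 0.06. With a term for orientation 10 were higher and 4 lower, against 23.8% and 38.1% of all tested probes in that fit. The lower ones were Aldh18a1, Sesn2, Slc7a1 and Slc7a11. Slc7a11 read -0.43 and -0.18 on arrays 1 and 2 and sat at the floor (-6.64) on arrays 3 and 4. Its call in that fit therefore rests on 2 floor values. The 9 were Phgdh, Cth, Psat1, Slc3a2, Asns, Mthfd2, Shmt2, Psph and Ddit4. Phgdh, the first enzyme of serine synthesis, read 0.75, 1.09, 1.37 and 1.04 (mean 1.06 ± 0.25, limma adjusted p = 0.00869). Cth, which makes cysteine, read 1.07, 1.14, 0.98 and 1.00 (mean 1.05 ± 0.07, limma adjusted p = 0.00233), and Psat1, the second serine enzyme, read 1.02, 1.23, 0.96 and 0.84 (mean 1.01 ± 0.16, limma adjusted p = 0.00461). Asns, asparagine synthetase, was higher by 0.68 ± 0.09 (limma adjusted p = 0.00465). The mRNA of the factor Atf4 itself was -0.06 ± 0.07 (limma adjusted p = 0.408), and the stress genes Trib3 (-0.07 ± 0.31), Chac1 (-0.07 ± 1.24) and Sesn2 (-0.13 ± 0.14) did not pass. Ddit3 read -0.21 and -1.54 on arrays 1 and 2 alone.

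Agreement between the channel orientations was closer for the members than for the arrays as a whole. Across the 91 tested members, Pearson's r was 0.982 between arrays 1 and 2, 0.985 between arrays 3 and 4, and 0.877 to 0.894 between orientations. Across the 13191 tested probes above the floor it was 0.836 and 0.912 within orientations and 0.113 to 0.274 between them. These correlations are over probes of the same arrays, which are not independent replicates. The few members with large ratios may carry much of them, which was not tested. Even so, 24 of 91 members had means of opposite sign in the 2 orientations, and the median size of the orientation difference was 0.21 for members and 0.34 for all tested probes. A difference of at least 1 was seen in 1 member, Eef1g, and in 20.8% of all tested probes.

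**Figure D5:**
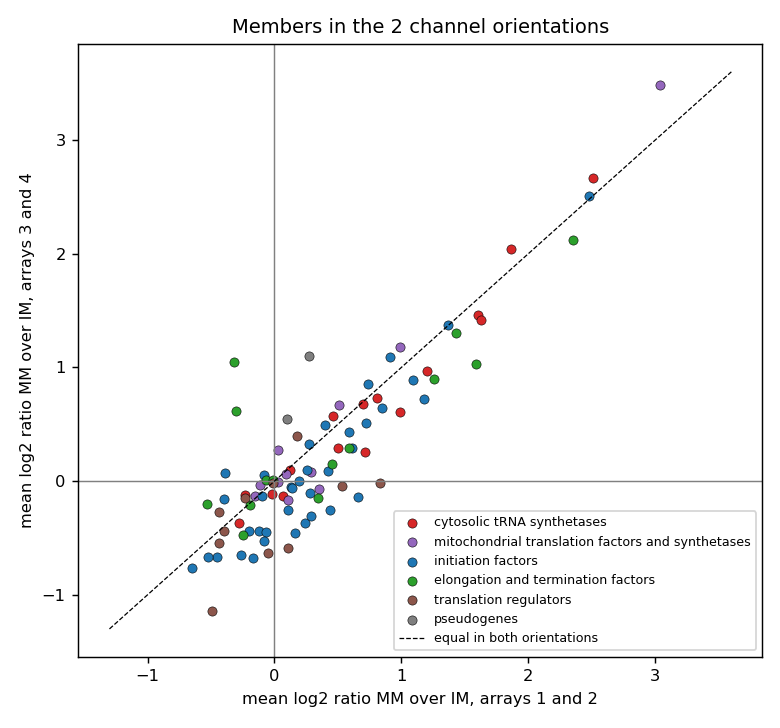
Mean log2 ratio of MM over IM on arrays 1 and 2 (horizontal) against arrays 3 and 4 (vertical) for the 91 tested members, coloured by role, with a dashed line of equality. The largest ratios are positive in both orientations, and 24 members lie in the quadrants of opposite sign. Among these, Eef1g (-0.32 and 1.05) lies farthest from the line.

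Calls depended on how the 4 arrays were treated as replicates. With a term for channel orientation, whose residual comes from the same-orientation pairs alone, 45 members were higher and 25 lower, at 23.8% and 38.1% of all tested probes (61.9% in either direction). All 40 calls above also passed in that fit. With each orientation averaged to 1 value, 0 members and 0 of all tested probes passed in limma, while 25 members and 1526 of all tested probes had an unadjusted p under 0.05. With arrays centred on their medians, 30 members were higher and 7 lower, at 15.0% and 10.2% of all tested probes. On arrays 3 and 4 alone the counts were 31 and 22, at 23.6% and 30.7%. Without array 1, 21 members were higher and 3 lower (6.15% and 3.41% of all tested probes). The counts were 21 and 4 without array 2 (6.44% and 4.15%), 22 and 4 without array 3 (7.27% and 4.48%), and 20 and 2 without array 4 (5.6% and 2.98%). In all 4 of these fits, 18 members were called higher. These were the cytosolic synthetases Tars, Rars, Qars, Vars, Aars, Yars and Iars, the mitochondrial factors Gfm1 and Tsfm, the initiation factors Eif3b, Eif3c, Eif3l, Eif4b, Eif2b2 and Eif4a2 (first probe), and Eef2 (second probe), Eef1a1 and Etf1. Eif4g3 and Eif4e3 were called lower in all 4. How many of all tested probes were called in all 4 fits was not counted, so no share stands beside these members.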

How the data were processed

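The deposited values are log2 ratios, 1 for each probe on each array. Per the labels' protocols, the authors quantified spots in Imagene 5.5, reversed the channels of arrays 3 and 4 for the dye swap, applied a lowess fit (20.0% of the data at a point) to the control channel and raised control values below 10 to that minimum. Base 2 follows from the values, since between 98.9% and 100% of the ratios below 1 then fall on thousandths (tolerance 0.01 thousandths). No source used here gives background correction or spot flags. Spot intensities were not used, which leaves distance from background unknown, and precision is limited by the number of arrays.

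Symbols came from the platform annotation (17252 probes with 1 symbol, 156 with several, 5294 with none) and were checked through gene IDs against RefSeq (GRCm38.p6), where all 95 member probes matched and 0 changed. Another probe with several symbols, Eif4h among them, was not named. Probes with 4 values were fitted with limma 3.58.1 in R 4.3.3 as a mean against 0, two-sided, without an orientation term, so that the residual holds the spread over all 4 arrays. Errors are SDs over arrays. On simulated arrays of 14184 probes, with 50 changed at each size, 36%, 64%, 82% and 90% of changes of 0.5, 1, 2 and 3 on the log2 scale were called, with 9 false calls. The simulated arrays were independent, which the real pairs may not be. They also held a far smaller share of changed probes than the 28.0% called in the data. The Benjamini-Hochberg cut-off depends on that share, so these percentages are not detection rates for the real fit.

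The members, roles and lists were chosen with earlier results of these data known. Named were, per role, up to 6 called members in each direction by size, members with probes of opposite call and a fixed set of well-known factors. Up to 3 called genes in each direction were named from each other list. Members and genes of other lists named beyond these, Xist and the promoter motifs were chosen after values were seen. Alternatives were the orientation term, orientation averages, centring, omission of probes at the floor, probes with 3 or more values, gene averages, each orientation alone and each array left out.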

Additional observations from a re-analysis of the deposited data

Results flagged for a closer look

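Each of the 91 tested members was checked for 1 array far from the other 3. For the second Eif4a2 probe, array 1 read 0.31 while the others lay between -0.07 and -0.03. The gap to the nearest array was 0.904 of the whole range, above Dixon's 95% critical value for 4 values. Chance alone flags about 1 in 20 groups of 4 independent values. The arrays pair by orientation, so that rate may not hold here, where 1 of 91 was flagged. That probe was not called, and the call of the first Eif4a2 probe does not rest on it.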

How the results depend on the processing

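The precision is limited by 4 arrays of unknown independence and by intensities that were not used. Counts over all probes, 1932 higher and 2036 lower in MM, became 3371 and 5408 with the orientation term, 3341 and 4360 on arrays 3 and 4 alone, and 0 and 0 with orientations averaged. Centring on array medians gave 2125 and 1448. Leaving out 1 array gave 794 to 1031 higher and 423 to 636 lower. Member counts, 29 higher and 11 lower, became 45 and 25 with the orientation term and 0 and 0 with orientations averaged. Lower calls among members were 7 with arrays centred, 22 on arrays 3 and 4 alone and 2 to 4 with 1 array left out. Higher calls among members then numbered 20 to 22, each of them among the 29.

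Of the role medians, initiation factors stood at 0.24 and regulators at -0.05 on arrays 1 and 2 alone. Elongation and termination factors stood at 0.37 with gene averages and at 0.15 to 0.32 with 1 array left out. Cytosolic synthetases stood at 0.69 with 3 or more values, 0.69 with gene averages and 0.71 on arrays 1 and 2 alone. The causes were not tested.

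Of named members not called, Eef1a2 (second probe) turned to -0.30 on arrays 1 and 2 alone, and with 1 array left out it ran from -0.02 to 0.38. On arrays 3 and 4 alone Eef2k was -0.02, Eif2ak3 -0.04, the second Eif4a2 probe -0.06 and Eif5 0.07. With 1 array left out the second Eif4a2 probe ran from -0.05 to 0.08 and Eif4ebp2 from -0.03 to 0.0012. Eif4ebp2 was 0.05 with arrays centred. No paired analysis was possible because no 2 groups share replicate numbers: the arrays form a single group in which each ratio already sets the tissues side by side. Pairing arrays by orientation is covered by the orientation term and the orientation averages.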
